A study of Mus musculus with 37 samples.

Results

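The carnitine shuttle was followed through 7 genes, Slc22a5, Cpt1a, Cpt1b, Slc25a20, Cpt2, Crat and Crot, in livers of mice given HFPO-DA. Members were all probes whose gene symbol, the text before the final _ of the probe name, was one of these 7. They came to 14 of 30146 probes and 7 of 21450 genes, with 3 probes each for Cpt1b, Crat and Slc22a5, 2 for Cpt2 and 1 each for Cpt1a, Slc25a20 and Crot. All 14 passed the filter on low counts, as did 18570 probes in all.

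HFPO-DA, an ammonium salt of a short-chain perfluoroalkyl ether acid used in making fluoropolymers, was given by oral gavage in deionized water to wild-type CD1 mice, of the Crl:CD1(ICR) stock, at 5, 0.5 or 0.1 mg/kg/day, with vehicle alone (0 mg/kg/day) as the control. The mice were the F0 adults of a reproduction and developmental toxicity study. Males were about 6 weeks old at the start and received 84 to 85 doses, over 70 days before mating and 14 days of mating. Females were about 11 weeks old and received 53 to 65 doses, from 14 days before mating to lactation day 20 or 21. Sex therefore went with age, number of doses and recent pregnancy and lactation, and these cannot be told apart. RNA was measured by TempO-Seq, in which pairs of short detector oligos are ligated on the transcript and the ligated products are sequenced and counted, on fixed, paraffin-embedded liver sections. From vehicle to the highest dose there were 5, 5, 5 and 4 males, and among females 5, 5, 4 and 4, 37 mice in all.

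Long-chain fatty acids reach the mitochondrial matrix only as carnitine esters. Slc22a5, also called OCTN2, takes carnitine into the cell. A carnitine palmitoyltransferase of the outer membrane, CPT1A in liver and CPT1B in muscle and brown fat, moves the acyl group from CoA to carnitine, and this step is the one that malonyl-CoA inhibits. Slc25a20 exchanges the acylcarnitine for free carnitine across the inner membrane, and CPT2 on the matrix side returns the acyl group to CoA. CRAT does the same exchange for acetyl and other short chains, and CROT for the medium chains that peroxisomal β-oxidation leaves. Genes of fatty acid oxidation in rodent liver are known targets of the nuclear receptor PPARα.

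The libraries held 2101495 to 10548222 counts in males and 7952605 to 13878254 in females. Replicate 2 of the males at 0.5 mg/kg (2608954 counts) and replicate 3 of the males at 5 mg/kg (2101495 counts) had less than 0.5 of the median total of their sex. Levels are given as CPM, counts scaled to the normalized size of the library. TempO-Seq probes differ in efficiency, and CPM were therefore compared between mice for 1 probe and not between genes. All 7 hepatocyte markers examined had counts, and Alb reached a median of 8974 CPM. In bulk tissue, fewer cells of a type and less RNA per cell cannot be told apart.

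At 5 mg/kg, 10 of the 14 probes were higher than vehicle in males and 8 in females, and none was lower (edgeR quasi-likelihood test, Benjamini-Hochberg adjusted p under 0.10). Over all probes tested, 4.21% were higher and 8.49% lower in males, and 2.26% were higher and 2.26% lower in females. The probes called belonged to 5 genes in males (Cpt1b, Slc25a20, Cpt2, Crat and Crot) and to 4 in females (the same without Crot). The median log2 fold change of the 14 probes was 2.70 (males) and 2.21 (females), against -0.12 and -0.01 over all probes. In males 10 probes had every treated mouse above every vehicle mouse, and in females 9 did, where 2.78% and 4.4% of all probes were separated this way. Probes of 1 gene share their transcript and are not independent of each other.

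**Figure D1:**
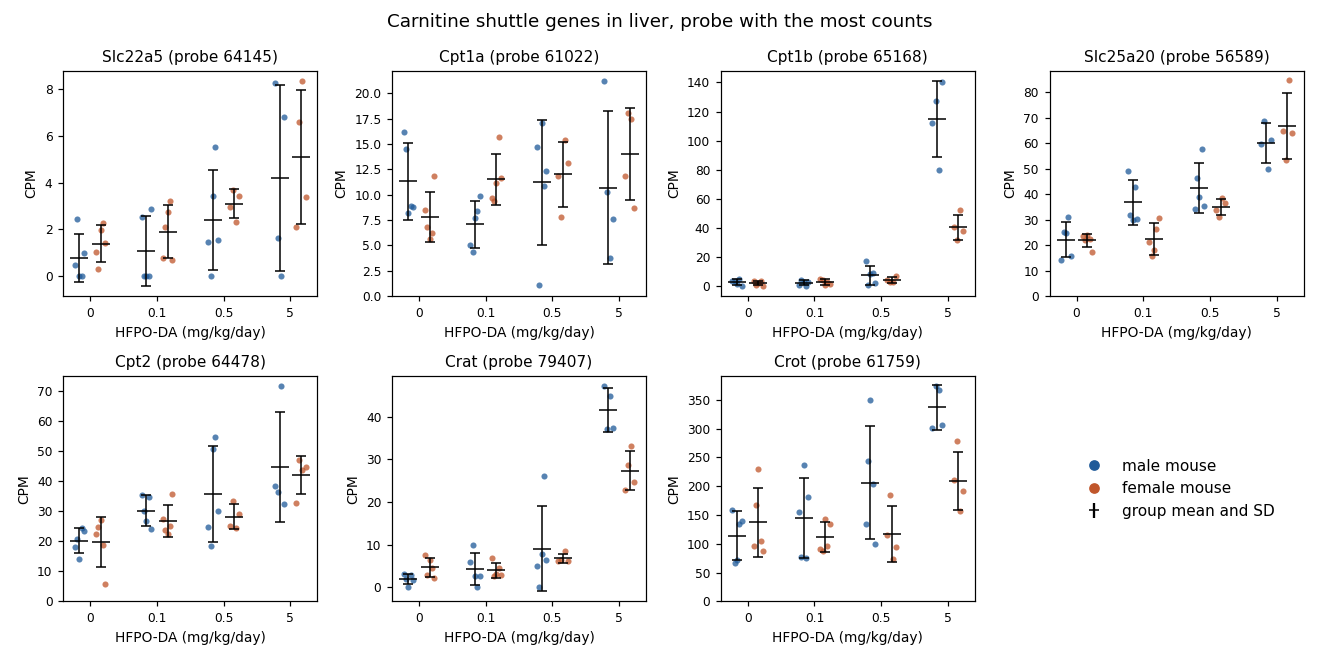
Level of each carnitine shuttle gene in CPM (vertical axis) at each dose of HFPO-DA (horizontal axis), for the probe of the gene with the most counts. Each point is a mouse, and the bars give the group mean and SD. The Cpt1b points at 5 mg/kg lie between 79.9 and 140.0 CPM in males and between 31.6 and 52.1 in females, whereas those of Cpt1a overlap with vehicle in both sexes.

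Cpt1b, the form of the outer-membrane enzyme known from muscle, gave the largest change among the members. Its probe with the most counts, Cpt1b_65168, read 3.48, 3.24, 1.47, 4.92 and 0 CPM in the 5 vehicle males and 112.0, 127.0, 79.9 and 140.0 CPM in the 4 males at 5 mg/kg. The vehicle females read 3.25, 0.717, 1.97, 3.44 and 0.167 CPM, and the females at 5 mg/kg 40.3, 31.6, 52.1 and 37.7 CPM. Every treated mouse of either sex was above every vehicle mouse, and the lowest treated female exceeded the highest vehicle male. The log2 fold change was 5.44 ± 0.72 (SE) in males (adjusted p = 6.43e-07), and for females it was 4.41 ± 0.70 (adjusted p = 2.7e-05).

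Both other Cpt1b probes moved the same way. Cpt1b_31741 rose from 1.76 ± 1.65 CPM (SD, n = 5) to 39.5 ± 19.4 (n = 4) in males and from 1.1 ± 0.539 (n = 5) to 20.9 ± 5.9 (n = 4) in females, log2 fold changes of 4.48 ± 0.86 and 4.23 ± 0.85 (SE). Cpt1b_80344 rose from 0.438 ± 0.57 CPM to 19.5 ± 6.16 in males and from 0.448 ± 0.571 to 17.8 ± 7.07 in females, log2 fold changes of 5.45 ± 1.24 and 5.29 ± 1.22. All 4 of these changes passed the test, with adjusted p between 0.000312 and 0.0049, and none of the ranges overlapped. Over the 37 mice the log2 CPM of the 3 probes correlated in pairs with Pearson's r of 0.787 to 0.834, a description of probes that share transcript and library.

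Cpt1b lies on GRCm38 chromosome 15 from 89416405 to 89425863, on the minus strand, 496 bases from Chkb, which encodes a choline kinase and is transcribed in the same direction. GENCODE annotates a transcript, Gm44502, that overlaps both genes. The Chkb probe read 6.8 ± 1.61 CPM (SD, n = 5) in vehicle males and 17.2 ± 5.5 (n = 4) in those at 5 mg/kg, which differed by 1.33 ± 0.49 on the log2 scale (SE, adjusted p = 0.0823), and it was not called in females (0.99 ± 0.48, adjusted p = 0.394). The position of the probes within the transcripts was not examined, so that counts from a shared transcript and from either gene cannot be told apart.

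Muscle and brown fat express Cpt1b, and markers of both were read in the same libraries. Of 7 striated muscle markers, 5 passed the filter, none was higher at 5 mg/kg in either sex, Tnnt2 was lower in males (log2 fold change -7.21, adjusted p = 0.0741) and Mb was at 0 in every mouse. The summed muscle markers ranged from 8.29 to 44.2 CPM in vehicle males and from 4.17 to 18.8 at 5 mg/kg, and from 5.33 to 31.1 and 6.18 to 34.8 in females. Of the 3 brown fat markers, Ucp1 had counts in 1 mouse and Dio2 in 5, with at most 8 and 5 counts. Cidea, a lipid droplet protein that steatotic liver also expresses, rose in males (log2 fold change 8.27, adjusted p = 0.0211, vehicle males at 0) and was not called in females (1.47, adjusted p = 0.97). The part of these markers in the Cpt1b result was not tested beyond these values.

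Cpt1a, the form known from liver, was not called in any comparison of the main edgeR fit. The vehicle males read 16.2, 14.5, 8.16, 8.9 and 8.81 CPM, and the males at 5 mg/kg 21.2, 10.3, 3.75 and 7.57. The vehicle females read 8.49, 6.86, 5.62, 6.2 and 11.8 CPM, and the females at 5 mg/kg 11.8, 18, 17.5 and 8.68. The groups overlapped in both sexes. The log2 fold change was -0.08 ± 0.45 (SE) in males (adjusted p = 0.959) and 0.03 with DESeq2's size factors, so that its sign was not determined. In females it was 0.84 ± 0.44 (adjusted p = 0.458), and with each sex fitted apart it passed (adjusted p = 0.0627).

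The log2 ratio of the summed Cpt1b probes to the Cpt1a probe, with 0.5 CPM added to each, was computed for each mouse after these values had been seen and is given without a test. It lay between -2.04 and -0.76 in vehicle males and between 2.72 and 5.25 in males at 5 mg/kg, with means of -1.21 and 4.19. In females it lay between -3.4 and -0.09 at vehicle and between 1.65 and 3.2 at 5 mg/kg, with means of -1.3 and 2.48. At 0.5 mg/kg the males lay between -0.91 and 0.67 and the females between -1.78 and -0.3, both overlapping with vehicle. The means there were 0.01 in males and -0.95 in females. Since the probes differ in efficiency, the ratio compares mice and does not give which enzyme's mRNA was more abundant.

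**Figure D2:**
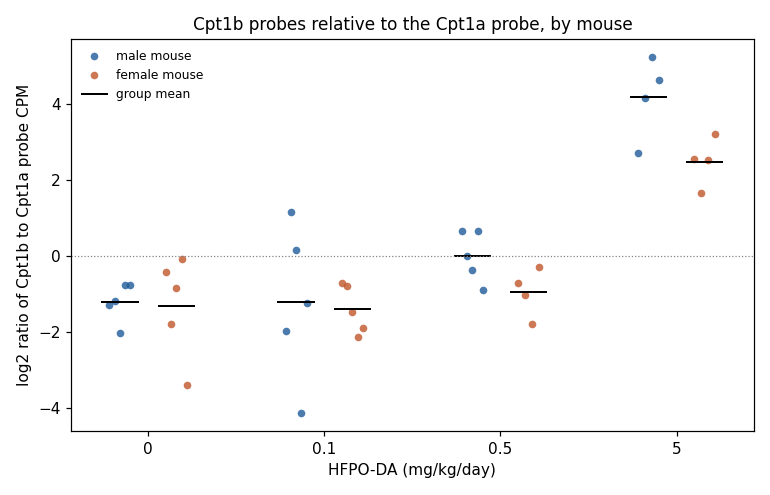
Log2 ratio of the summed CPM of the 3 Cpt1b probes to the CPM of the Cpt1a probe (vertical axis, 0.5 CPM added to each) against the dose of HFPO-DA (horizontal axis). Points are mice and lines are group means. The means at 5 mg/kg are 4.19 in males and 2.48 in females, against -1.21 and -1.3 at vehicle.

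Slc25a20, the carnitine-acylcarnitine carrier of the inner membrane, rose in both sexes. In the main edgeR fit it was the only member called below 5 mg/kg, in males at 0.5 mg/kg. Its only probe read 14.1, 25.3, 24.7, 31 and 15.9 CPM in vehicle males, 34.2, 46.4, 39.0, 57.8 and 35.2 at 0.5 mg/kg and 59.7, 68.8, 49.9 and 61.2 at 5 mg/kg. In females the values were 23.4, 22.1, 24.1, 22.5 and 17.4 CPM at vehicle, 33.9, 30.9, 38.4 and 36.5 at 0.5 mg/kg and 64.9, 53.4, 84.8 and 63.8 at 5 mg/kg. All treated mice at these 2 doses were above all vehicle mice of their sex, and in females the 0.5 and 5 mg/kg groups did not overlap either. The log2 fold change at 5 mg/kg was 1.43 ± 0.23 (SE) in males (adjusted p = 2.21e-05), and for females it was 1.61 ± 0.23 (adjusted p = 3.77e-06).

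At 0.5 mg/kg the Slc25a20 change was called in males (0.94 ± 0.22, SE, adjusted p = 0.0361) and not in females (0.67 ± 0.23, adjusted p = 0.917), and the difference between the sexes did not pass the test (0.26 ± 0.32, adjusted p = 1.0). The call in males was lost without vehicle replicate 1 (0.82, adjusted p = 0.117), vehicle replicate 5 (0.84, adjusted p = 0.117) or replicate 4 at 0.5 mg/kg (0.80, adjusted p = 0.171). It was also lost with each sex fitted apart (0.94, adjusted p = 0.213).

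Promoter windows of 250 bases before to 50 bases after the annotated start were taken from RefSeq on GRCm38.p6, where 5 of the 7 members matched, all but Cpt1b and Crat. Both strands were searched for the pair known as DR1, AGGTCA repeated after a spacer of any 1 base, as in PPAR response elements, and for the half-site AGGTCA alone, which the pair contains. None of the 5 windows held the pair, which 0.0396% of 32851 promoters did, and only that of Cpt1a held the half-site, present in 16.3% of promoters. A looser form, AGGTNA and AGGTC with any 1 base between them, was written after the Slc25a20 window had been read, which holds it 6 bases after the start. Its presence there was thus fixed in advance. The form was found in 0.146% of promoters, a share that does not measure how unusual the Slc25a20 window is. The windows of Slc25a20, which rose, and of Cpt1a, which was not called, are printed to show these letters, with those found in capitals. They lie at chr9:108661886-108662185 and chr19:3323051-3323350, both on the plus strand. A match in letters is a description and not a binding site.
Slc25a20: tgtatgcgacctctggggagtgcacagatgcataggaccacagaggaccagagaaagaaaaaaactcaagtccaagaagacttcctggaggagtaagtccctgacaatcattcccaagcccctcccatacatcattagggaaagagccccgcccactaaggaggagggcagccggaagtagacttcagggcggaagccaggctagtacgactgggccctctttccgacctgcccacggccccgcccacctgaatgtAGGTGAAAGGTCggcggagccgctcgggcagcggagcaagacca
Cpt1a: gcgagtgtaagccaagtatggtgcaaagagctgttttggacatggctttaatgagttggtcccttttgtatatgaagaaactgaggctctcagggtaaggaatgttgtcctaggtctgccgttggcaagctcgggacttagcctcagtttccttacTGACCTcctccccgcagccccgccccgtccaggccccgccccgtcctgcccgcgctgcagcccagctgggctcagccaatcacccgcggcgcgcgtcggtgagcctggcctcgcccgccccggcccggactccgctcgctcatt

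Cpt2, the matrix-side transferase, rose by about the same amount in both sexes. Cpt2_64478 read 18.1, 20.8, 14.0, 24.5 and 23.4 CPM in vehicle males and 38.4, 36.2, 71.6 and 32.3 at 5 mg/kg. In females it read 22.4, 24.7, 26.9, 18.7 and 5.83 CPM at vehicle and 32.8, 47.1, 43.5 and 44.5 at 5 mg/kg. The groups did not overlap in either sex. The log2 fold change was 1.14 ± 0.30 (SE) in males (adjusted p = 0.0124), and for females it was 1.09 ± 0.30 (adjusted p = 0.0268).

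The male value rested in part on replicate 3 at 5 mg/kg, the shallowest library, without which it was 0.82 (adjusted p = 0.111), and the female call was lost without replicate 2 at 5 mg/kg (1.02, adjusted p = 0.104). The other Cpt2 probe, Cpt2_78530, rose from 10.8 ± 3.91 CPM (SD, n = 5) to 33.3 ± 11.9 (n = 4) in males and from 10.0 ± 4.49 to 26.6 ± 2.53 in females. Its log2 fold changes were 1.62 ± 0.47 (SE, adjusted p = 0.0238) and 1.41 ± 0.47 (adjusted p = 0.0996). The male call was lost with each sex fitted apart (adjusted p = 0.11) and the female call, close to the threshold, in 8 of the 9 fits that left out 1 mouse.

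Crat, which passes acetyl and other short acyl groups between CoA and carnitine, was low at vehicle and rose at 5 mg/kg in both sexes. Crat_79407 read 3.0, 1.95, 0, 2.92 and 1.71 CPM in vehicle males and 47.2, 37.1, 45.0 and 37.5 at 5 mg/kg. In females it read 7.44, 2.76, 6.27, 4.43 and 2.25 CPM at vehicle and 22.9, 28.8, 33.1 and 24.6 at 5 mg/kg. No treated mouse overlapped with vehicle. The log2 fold change was 4.43 ± 0.72 (SE) in males (adjusted p = 2.79e-05), and for females it was 2.56 ± 0.66 (adjusted p = 0.0161). Subtracting the female from the male change left 1.87 ± 0.94, which had an unadjusted p of 0.0533 and an adjusted p of 0.479.

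Crat_69948 rose from 1.05 ± 0.961 CPM (SD, n = 5) to 20.6 ± 6.82 (n = 4) in males and from 2.27 ± 2.04 to 23.2 ± 7.84 in females, log2 fold changes of 4.27 ± 0.73 (SE) and 3.35 ± 0.69. Both passed the test (adjusted p = 5.52e-05 and 0.0012). The last probe, Crat_63259, had 1 count in the vehicle males together and 37 in the males at 5 mg/kg, all of them in replicates 1 and 2, a ratio of 62.8 after scaling for depth (95% counting interval 10.6 to 2545). In females it had 3 and 38 counts, a ratio of 15.5 (4.91 to 78.4). These intervals cover counting error only. The male change was called (5.22 ± 1.98, adjusted p = 0.0958) but lost without any of 7 of the 9 mice compared, and the female change was not (3.70 ± 1.83, adjusted p = 0.403). GENCODE places Dolpp1 and Gm16323 over part of Crat on the opposite strand.

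Crot, the peroxisomal transferase for medium chains, rose in males. Its probe read 159.0, 66.0, 72.0, 135.0 and 140.0 CPM in vehicle males and 301.0, 373.0, 367.0 and 306.0 at 5 mg/kg. In females it read 96.8, 167.0, 229.0, 105.0 and 87.0 CPM at vehicle and 210.0, 278.0, 157.0 and 191.0 at 5 mg/kg. The male groups were apart and the female groups overlapped. The log2 fold change was 1.56 ± 0.33 (SE) in males (adjusted p = 0.0011), and for females it was 0.61 ± 0.32 (adjusted p = 0.475). The male change exceeded the female one by 0.95 ± 0.46, with an unadjusted p of 0.0466 and an adjusted p of 0.457, and a sex difference was therefore not shown.

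Slc22a5, the carnitine importer of the cell membrane, was not called in the main edgeR fit on any of its 3 probes. These had few counts in every group, and the gene passed in some other fits. Slc22a5_64145 read 0.48, 2.46, 0, 0 and 0.995 CPM in vehicle males and 8.25, 1.65, 0 and 6.8 at 5 mg/kg, and the female groups also overlapped. Its log2 fold changes were 2.39 ± 1.20 (SE, adjusted p = 0.219) in males and 1.86 ± 1.16 (adjusted p = 0.636) in females, where it passed with each sex fitted apart (adjusted p = 0.0531). Slc22a5_80069 read 2.64, 0.649, 0, 0 and 0.995 CPM in vehicle males and 8.96, 8.27, 3.75 and 7.11 at 5 mg/kg, and 0, 1.74, 0, 0.885 and 0 against 3.85, 1.92, 4.74 and 4.59 in females. Its groups did not overlap in either sex, yet the changes of 3.01 ± 1.23 and 2.82 ± 1.23 did not pass in the main edgeR fit (adjusted p = 0.126 and 0.293). The male change did pass with DESeq2 (3.14, adjusted p = 0.0393), with counts thinned to the smallest total (3.19, adjusted p = 0.0489) and without vehicle replicate 1 (4.04, adjusted p = 0.0725). Slc22a5_65779 gave 1.86 ± 1.93 and 0.25 ± 1.89.

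With the 3 probes summed, Slc22a5 passed in males (2.66, adjusted p = 0.039). The probes correlated weakly with each other (Pearson's r of 0.163 to 0.369 over 37 mice), and the standard errors of their changes were over 1 on the log2 scale.

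**Figure D3:**
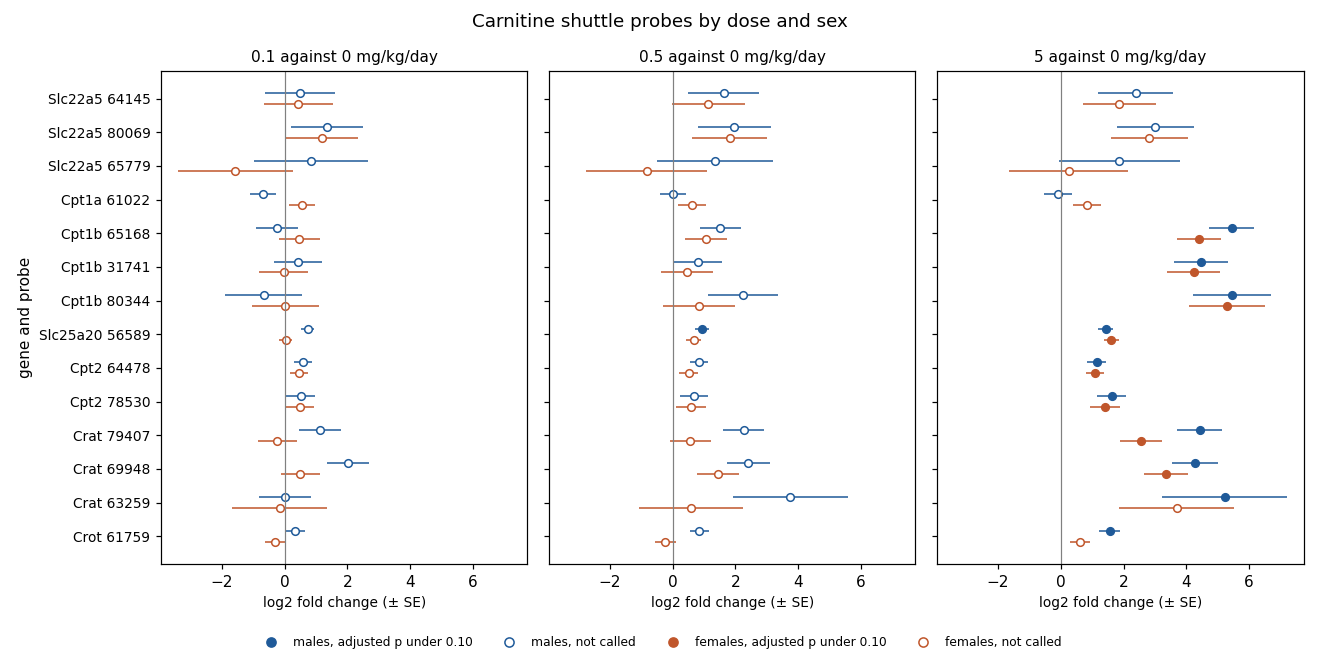
Log2 fold change against vehicle (horizontal axis, with its SE) of the 14 probes (vertical axis) in males and females at each of the 3 doses. Filled points passed an adjusted p under 0.10. At 0.5 mg/kg the Slc25a20 probe in males is the one filled point, and at 5 mg/kg 10 probes in males and 8 in females are filled.

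Below 5 mg/kg few changes passed. At 0.5 mg/kg 1 of the 14 probes was called in males, that of Slc25a20, where 0.382% of all probes were called higher and 0.242% lower, although all 14 fold changes were positive and 7 had an unadjusted p under 0.05 (10.3% of all probes did). Crat_69948 came next (2.41 ± 0.68, SE, adjusted p = 0.124) and Crat_79407 after it (2.26 ± 0.66, adjusted p = 0.145), and both passed without replicate 2 of that group, a shallow library in which both were at 0 (adjusted p = 0.0323 and 0.0407). Cpt1b_65168 changed by 1.52 ± 0.64 (adjusted p = 0.386).

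In females at 0.5 mg/kg none was called by edgeR or DESeq2 (edgeR called 0.108% of all probes higher and 0.00539% lower), and 2 had an unadjusted p under 0.05, Slc25a20 and Crat_69948, where 4.33% of all probes did. At 0.1 mg/kg edgeR and DESeq2 called no member in either sex, and the main edgeR fit called 0.0% of all probes. In males 3 probes had an unadjusted p under 0.05 there, Slc25a20 (0.73 ± 0.22, SE), Crat_69948 (2.01 ± 0.67) and Cpt2_64478 (0.58 ± 0.29), where 7.14% of all probes did, and in females 0 did, where 2.38% of all probes did.

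From 0.5 to 5 mg/kg, 5 probes rose in males, those of Cpt1b and 2 of Crat, where 3.16% of all probes rose and 5.57% fell, and 4 in females, those of Cpt1b and Slc25a20, where 0.635% rose and 0.84% fell. The log2 difference for Cpt1b_65168 was 3.92 ± 0.67 (SE, adjusted p = 0.000151) in males and 3.35 ± 0.72 (adjusted p = 0.00656) in females. For Slc25a20 it was 0.50 ± 0.23 (adjusted p = 0.196) and 0.93 ± 0.24 (adjusted p = 0.0391). Without replicate 2, 3 or 5 of the males at 0.5 mg/kg or replicate 3 or 4 at 5 mg/kg, the count in males fell from 5 to 3. Without replicate 1, 2 or 4 of the females at 0.5 mg/kg or replicate 3 at 5 mg/kg, the count in females fell from 4 to 2. Without any other female of these groups it fell to 3. Cpt1b_80344 (adjusted p = 0.0847 in the main edgeR fit) lost its female call in all 8 of these fits. Slc25a20 lost its female call in those where the count fell to 2.

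No difference between vehicle males and females passed on any of the 14 probes by edgeR or DESeq2. Of all probes, the main edgeR fit called 1.24% higher in males and 1.36% lower. Of the 14, 0 had an unadjusted p under 0.05, where 10.9% of all probes did. The smallest adjusted p was that of Crat_79407 (0.507), with a male minus female difference of -1.26 ± 0.65 (SE) on the log2 scale. The sex difference in the response passed for none of the 14 at any dose by edgeR or DESeq2. Of all probes, 0.167% had a higher male than female change at 5 mg/kg and 0.463% a lower one, with 0.00539% in each direction at 0.5 mg/kg and 0.0% at 0.1 mg/kg. An unadjusted p under 0.05 was seen for 1 member probe at 5 mg/kg (10.7% of all probes), 1 at 0.5 mg/kg (5.13%) and 2 at 0.1 mg/kg (4.46%). These were Crot at both higher doses and Cpt1a and Slc25a20 at the lowest.

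Genes on either side of the shuttle were read from lists of its suppliers, its inhibitor and the pathways it feeds. A gene was counted when any of its probes passed at 5 mg/kg, by which rule 5.25% of 13004 genes were higher and 10.5% lower in males, and 2.61% higher and 2.62% lower in females. Here levels and fold changes are for a gene's probe with the most counts unless another is named. Among 9 tested genes of carnitine synthesis and other carnitine carriers, 1 was higher and 2 lower in males, and 1 higher and 1 lower in females. Aldh9a1, the aldehyde dehydrogenase of carnitine synthesis, rose from 425.0 ± 87.1 to 671.0 ± 186.0 CPM in males (0.66 ± 0.20, SE, adjusted p = 0.0297). In females it was called on another probe (1.01 ± 0.24, adjusted p = 0.00763).

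Bbox1, the last enzyme of carnitine synthesis, fell in males from 69.3 ± 9.54 to 50.3 ± 9.29 CPM (-0.46 ± 0.17, adjusted p = 0.0838) and gave 0.28 ± 0.17 in females (adjusted p = 0.59). Shmt1, which has been proposed for the aldolase step but is mainly an enzyme of one-carbon metabolism, fell on its second probe in males (-1.25 ± 0.29, adjusted p = 0.00291) and on both probes in females (-0.56 ± 0.19 and -0.87 ± 0.28). Tmlhe, the enzyme of the initial step, was not called (0.45 ± 0.67 and 0.02 ± 0.66), nor were Shmt2, Slc22a4, Slc22a21, Slc25a29 and Slc25a45. Cpt1c and Slc22a16 were on the list and not tested.

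Malonyl-CoA, the inhibitor of CPT1, is made by the carboxylases Acaca and Acacb and removed by Mlycd, and AMPK restrains its synthesis. Of these 9 genes, 1 was higher and 1 lower in males and none was called in females. Acaca rose in males (0.78 ± 0.27, SE, adjusted p = 0.0705) and gave 0.11 ± 0.27 in females. Acacb, the form at the outer membrane of mitochondria, was not called (0.89 ± 0.42, adjusted p = 0.189, and 1.22 ± 0.41, adjusted p = 0.102), and neither was Mlycd (0.50 ± 0.38 and 0.86 ± 0.38). Of the AMPK subunits, Prkab2 fell in males on 1 probe (-3.81 ± 1.33, adjusted p = 0.0677), while Prkaa1, Prkaa2, Prkab1, Prkag1 and Prkag2 were not called.

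Of 5 long-chain acyl-CoA synthetases, which make the substrate of CPT1, Acsl1 and Acsl5 rose in both sexes. Acsl1 went from 1550.0 ± 410.0 to 3911.0 ± 884.0 CPM in males (1.34 ± 0.20, SE) and from 1301.0 ± 256.0 to 2833.0 ± 450.0 in females (1.12 ± 0.20). Acsl5 changed by 1.41 ± 0.28 and 0.87 ± 0.28, Acsl3 gave 1.33 ± 0.90 and 1.84 ± 0.88 without passing, and Acsl6 fell in males from 2.01 ± 1.33 CPM to 0 in all 4 mice.

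Mitochondrial β-oxidation, which the shuttle feeds, had 11 of 16 genes higher in males and 12 in females, and none lower. The genes with the smallest adjusted p were Eci1 (2.15 ± 0.20 in males and 1.92 ± 0.20 in females, SE), Decr1 (1.68 ± 0.18 and 1.39 ± 0.17), Eci2 (1.19 ± 0.17 and 1.60 ± 0.17) and Acadm (1.46 ± 0.18 and 1.32 ± 0.18), which handle double bonds and medium chains. Peroxisomal β-oxidation, upstream of Crot, had 9 of 15 genes higher and 1, Pecr, lower in males, and 10 higher and none lower in females. Ehhadh changed by 5.51 ± 0.30 and 5.03 ± 0.29 and Acaa1b by 3.38 ± 0.29 and 3.48 ± 0.29.

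At 0.5 mg/kg, 6 mitochondrial and 6 peroxisomal genes were called higher in males and 1 and 4 in females, where 0.477% and 0.131% of all genes were. Of 7 receptors and coactivators of these genes, none was higher at 5 mg/kg. Rxra, the partner of PPARα, was lower in males on 1 probe (-0.64 ± 0.15, SE, adjusted p = 0.00443) and in females on both (-0.55 ± 0.16 and -0.58 ± 0.15). Ppara itself was lower on 1 of 3 probes in males (-1.0 ± 0.32, adjusted p = 0.0409) and not called in females. At the same dose 4 of 7 hepatocyte markers were lower in males and 3 of 7 were in females, and their part in the shuttle results was not tested. Their summed level lay between 9543 and 16123 CPM in vehicle males and between 10189 and 11775 at 5 mg/kg, and in females between 14369 and 20514 and between 12924 and 15364. Markers of Kupffer cells, stellate cells, cholangiocytes, lymphocytes and adipocytes that passed the filter were not called. Only 3 of 5 passed it for cholangiocytes, 4 of 5 for lymphocytes and 1 of 5 for adipocytes. The summed adipocyte markers had a median of 0.426 CPM in vehicle males and 6.54 at 5 mg/kg, and 0.512 and 0.994 in females. Cidec, the adipocyte marker that passed, reached at most 10.6 CPM, the same as the highest sum in males at 5 mg/kg. Its log2 fold changes were 3.47 in males and 2.25 in females. Adipoq, Plin1 and Lep reached at most 0.863, 0.987 and 0.549 CPM in any mouse, and Cfd 3.23. The kidney tubule markers did not pass the filter, and 2 of 6 endothelial markers were lower in males.

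**Figure D4:**
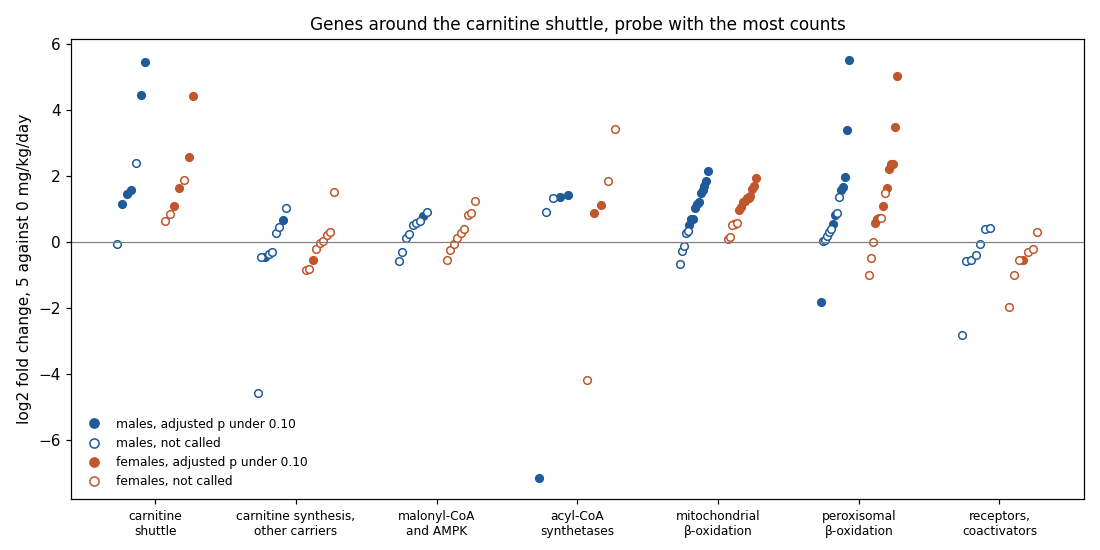
Log2 fold change at 5 mg/kg against vehicle (vertical axis) of each gene, by list (horizontal axis), in males and females, for the probe with the most counts. Filled points passed an adjusted p under 0.10. The shuttle genes and the β-oxidation lists hold most of the filled points above 0, with Ehhadh highest at 5.51 in males and 5.03 in females.

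Profiles most like each member were ranked over the 37 mice by Pearson's r of log2 CPM, after the vehicle mean of the same sex had been taken off, among 12995 genes. These are descriptions over mice that share dose groups and libraries. For Cpt1b the nearest were Acadm (r = 0.884), Me1 (0.879) and Pex16 (0.856), for Slc25a20 Eci1 (0.882), Retsat (0.869) and Hsd17b4 (0.866), and for Crat Mtnr1a (0.855), Acadl (0.84) and Tmem135 (0.827). For Crot they included Plin2 (0.816) and Snrpf (0.816), and for Cpt2 they were Acot1 (0.745), Dhrs4 (0.744) and Fabp1 (0.735). Cpt1a and Slc22a5 had other neighbours, Erbin (0.814), Ddx19a (0.763) and Skap2 (0.762) for the former and Capg (0.657), Evi2a (0.656) and Lig1 (0.654) for the latter. Among the members themselves, Cpt1b and Crat were the most alike (0.813), and Cpt1a ranged from -0.253 with Crot to 0.482 with Slc22a5.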

How the data were processed

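Liver sections of 40 mice, 5 per sex and dose, went through TempO-Seq, and the authors set 3 aside on quality. The authors deposited raw counts of reads per probe for the other 37, made with bcl2fastq 2.17.1.14 and Bowtie per the submitters' processing notes, with no normalization. Sex and dose came from each mouse's label. Of 68 pairs of mice within a group, 0 had identical counts, and all differed by more than counting noise.

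The test was the quasi-likelihood F test of edgeR 4.0.16 (R 4.3.3), after filterByExpr over the 8 groups of sex and dose and TMM scaling. It used 1 fit of group means to the 37 mice, called the main fit. Contrasts set each dose against vehicle within a sex, 5 against 0.5 mg/kg, and males against females, the sex difference in response being tested as an interaction, 12 comparisons in all. The doses of a sex share its vehicle mice, so their comparisons are not independent. Benjamini-Hochberg adjustment covered all 18570 probes of a comparison, with a threshold of 0.10. Standard errors are the log2 fold change over the root of the F statistic. The fitting code was tested on simulated data with large changes of 1 size, up or down. It recovered most of these changes for probes at higher CPM but few for probes at low CPM. Smaller changes, such as those of Cpt1a and Crot in females at 5 mg/kg, were not simulated and may have been missed at any level. The Cpt1b, Crat and Slc22a5 probes were low at vehicle, so that a change not called on them may have been missed. Counting intervals are exact (Clopper-Pearson) at 95%.

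Named were all member probes, up to 4 genes of each list with the smallest adjusted p at 5 mg/kg, all genes of the carnitine synthesis and malonyl-CoA lists, and the 3 profiles most like each member. A few genes that this rule picks are left unnamed but are included in every count. The members, lists and markers were chosen with earlier results of these data known. Alternatives were DESeq2 1.42.0, other size factors, filters, thresholds and fits, thinned counts, summed probes, and leaving out shallow libraries or each mouse in turn. Promoters came from RefSeq (GRCm38.p6) and loci from GENCODE on GRCm38.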

Additional observations from a re-analysis of the deposited data

Results flagged for a closer look

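Each probe was checked in each of the 8 groups for a mouse far from the others, by the gap to its nearest neighbour over the range of the group (Dixon's criterion at 95%). Of 112 such checks 13 found one, and chance alone gives about 1 in 20, although probes near 0 counts break the criterion's assumption and made up most of them.

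Among probes with counts in most mice, Cpt2_64478 read 71.6 CPM in replicate 3 of the males at 5 mg/kg, the shallowest library, against 32.3 to 38.4 in the others, and without that mouse the male call was lost. Cpt2_78530 read 19.8 CPM in replicate 5 of the females at 0.1 mg/kg, against 12.2 to 12.9. Replicate 3 of the females at 0.5 mg/kg stood above its group on Crat_69948 (9.29 CPM against 4.83 to 5.54) and on Crat_79407 (8.39 against 6.21 to 6.4).

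The other 9 lie on probes at or near 0 in their group. Cpt1b_80344 had counts in 1 male at 0.1 mg/kg, replicate 3, with 1.27 CPM. Crat_63259 had counts in 1 mouse of each of 4 groups, with 0.12 CPM in vehicle male replicate 1, 0.115 in replicate 1 of the males at 0.1 mg/kg, 0.295 in vehicle female replicate 4 and 0.26 in replicate 5 of the females at 0.1 mg/kg. Slc22a5_65779 stood high in vehicle male replicate 1 (1.44 CPM), replicate 2 of the males at 0.1 mg/kg (2.67), replicate 5 of the males at 0.5 mg/kg (4.76) and vehicle female replicate 1 (3.88), in groups whose other mice read at most 0.532 CPM.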

How the results depend on the processing

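Outside the fits that left out 1 mouse, 108 of 116 recomputed counts of member calls stayed within 1.5 times the value reported, among them every count at 5 mg/kg against vehicle and every count of 0. The 1 probe called in males at 0.5 mg/kg became 3 with no filter on low counts, 3 without the shallow libraries, 3 with DESeq2 and 0 with each sex fitted apart, and 2 genes in place of 1 with probes summed. The 5 probes called in males between 0.5 and 5 mg/kg became 3 at an adjusted p under 0.05, 2 with each sex fitted apart and 2 without the shallow libraries. The Cpt1a change in males turned from -0.08 to 0.03 with DESeq2's size factors, 0.03 with DESeq2 and 0.16 without the shallow libraries. The cause was not tested in these cases.

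With each mouse left out in turn, calls ranged from 8 to 11 in males and 6 to 8 in females at 5 mg/kg, 0 to 3 in males at 0.5 mg/kg, 3 to 5 in males and 2 to 3 in females between 0.5 and 5 mg/kg, and stayed at 0 in every other comparison. The Cpt1a change in males ranged from -0.66 to 0.19, and no other gene's leading probe changed sign at 5 mg/kg. No paired analysis was made, since each group held different mice. The labels give no replicate numbers, and those used here follow the order of the deposited samples within a group. Over all probes DESeq2 called 80 in females at 0.5 mg/kg against 21 by edgeR and 305 against 116 in males. The members with the fewest counts, Slc22a5_65779 and Crat_63259, had the widest standard errors at 5 mg/kg (1.93 and 1.98 in males).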
